A study of Homo sapiens with 8 samples.

Results

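A set of 10 well known long noncoding RNAs (lncRNAs) was followed in the human neuroblastoma line SK-N-SH with raised or lowered amounts of the chromatin reader ZMYND8. The genes were MALAT1, NEAT1, NORAD, TUG1, PVT1, CYTOR, MIAT, DLEU2, NBAT1 and CASC15, picked by name, and the count table held a row for each of them among its 60659 genes. Sequencing of total RNA, after removal of ribosomal RNA, covered 4 groups of 2 libraries, and every group had been given all-trans retinoic acid (ATRA) at 10 μM for 24 h to start neuronal differentiation. The overexpression experiment set cells that carried a doxycycline (Dox) inducible ZMYND8 (ZMYND8 OE) against Parental cells, and both received Dox. The knockdown experiment set cells with shRNA against ZMYND8 (ZMYND8 KD) against cells given a control knockdown (KD control). The inducible gene came on a lentivirus with drug selection, which the Parental cells are not stated to have passed through, so ZMYND8 and the vector cannot be told apart in that comparison. No group without ATRA is among the libraries, so all levels are those of ATRA-treated cells.

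Long noncoding RNAs act as RNA, some in the nucleus, where they build or decorate nuclear bodies, and some in the cytoplasm, where they bind proteins or microRNAs. MALAT1 gathers in nuclear speckles, the stores of splicing factors, and NEAT1 is the scaffold of the paraspeckles. NORAD holds PUMILIO proteins in the cytoplasm, MIAT is a nuclear RNA known from neurons, and NBAT1 and CASC15 come from a locus tied to neuroblastoma risk.

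Counts on genes totalled 38316523 to 56256979 per library. ZMYND8 itself had 3089 and 3612 counts in Parental, 220691 and 182849 in ZMYND8 OE, 3128 and 3374 in KD control, and 1641 and 1640 in ZMYND8 KD libraries, in the direction of the labels. Mitochondrial genes took 0.110% to 0.168% of counts in the overexpression experiment and 2.92% to 3.41% in the knockdown experiment. The labels call the cells epithelial, but CDH1, the defining cadherin of epithelia, was at 0.215 normalized CPM (CPM, read counts brought to a common library size, here over all 8 libraries) or less, and EPCAM at 1.03 or less. Of the other 4 epithelial markers, the keratin genes KRT18 and KRT8 were at 140 to 410 and 19.02 to 78.23 normalized CPM, CLDN4 at 4.16 to 9.75 and KRT19 at 1.61 or less. The summed level of 8 markers of adrenergic neuroblasts was 313 to 314 normalized CPM in Parental, 754 to 784 in ZMYND8 OE, 576 to 604 in KD control and 466 to 521 in ZMYND8 KD libraries, while TH, the enzyme that starts catecholamine synthesis, was at 0.0898 or less. The summed level of 7 mesenchymal markers was 9593 to 10266, 3031 to 3272, 4567 to 4714 and 5773 to 6174 normalized CPM in the same order of groups, with none of the 7 at 0. COL1A1, FN1 and VIM carry most of that sum, and the transcription factor genes PRRX1 and SNAI2 went the other way with knockdown, at log2 fold changes of -0.98 and -0.41 (adjusted p = 8.13e-07 and 0.0119). All results on the lncRNAs below stand beside these shifts, and the part of the shifts in the results was not tested. In bulk RNA, fewer cells of a type and less of an RNA per cell cannot be told apart.

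By length-scaled level, MALAT1 was by far the most abundant of the 10, and MALAT1, NORAD, TUG1 and NEAT1 lay far above the other 6 in every group. The level of MALAT1 in Parental cells was 534 ± 13.9 normalized CPM per kb (SD, n = 2), that of NORAD 174 ± 3.53, that of TUG1 29.3 ± 0.336 and that of NEAT1 18.4 ± 3.47. MALAT1 was first among 16763 lncRNA genes in length-scaled level in each of the 8 libraries, and NORAD ranked 2 or 3. On this length-scaled level these 4 genes kept the same order in all 4 groups, and their libraries did not overlap. By normalized CPM not divided by length, NEAT1 was above TUG1 in Parental cells, at 418 against 297, and below it in the other groups. The step from the fourth to the fifth gene was 15.2-fold in Parental, 5.38-fold in ZMYND8 OE, 11.4-fold in KD control and 8.28-fold in ZMYND8 KD cells on the length-scaled level.

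The 6 scarcer genes changed places between groups. In Parental cells their length-scaled levels ran from CYTOR at 1.21 normalized CPM per kb through MIAT, CASC15, PVT1 and DLEU2 to NBAT1 at 0.272. In ZMYND8 OE cells MIAT led at 2.03 normalized CPM per kb, followed by CASC15 and NBAT1, and CYTOR was last at 0.342. CASC15 led the 6 in KD control and ZMYND8 KD cells, at 1.81 and 1.83 normalized CPM per kb. Neighbours whose libraries overlapped in this order were CASC15 and PVT1 in Parental cells, PVT1 and CYTOR in ZMYND8 OE cells, and PVT1 with MIAT and DLEU2 with NBAT1 in both knockdown groups.

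**Figure D1:**
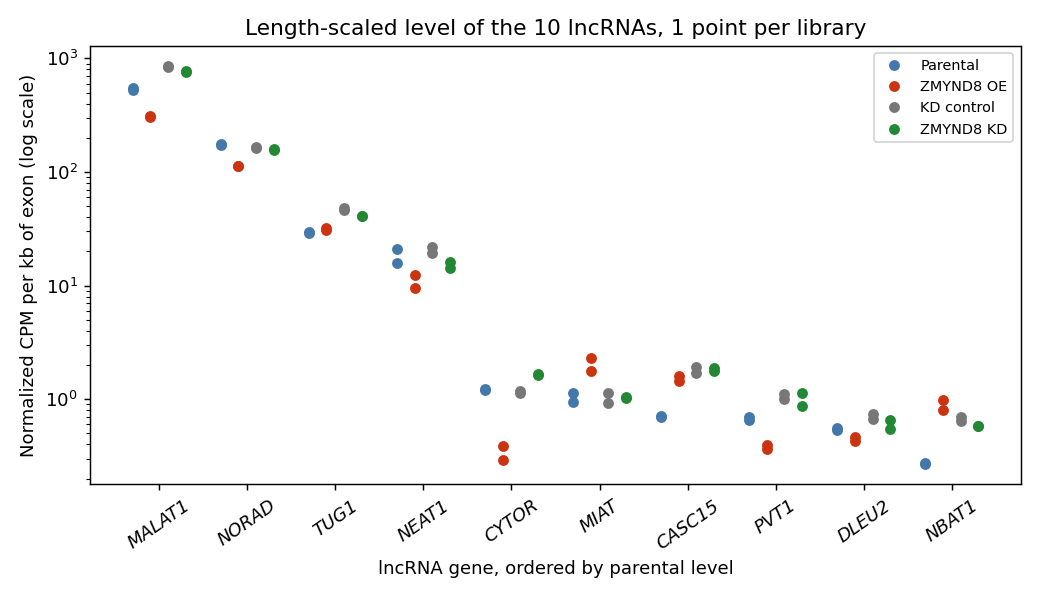
Length-scaled level of each lncRNA in the 8 libraries, in normalized CPM per kb of exon on a log axis, with 1 point per library and the genes ordered by their Parental mean. MALAT1, NORAD, TUG1 and NEAT1 sit above the other 6 in every group, and CYTOR, MIAT, CASC15 and NBAT1 change places between Parental and ZMYND8 OE cells.

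The first comparison asked how these lncRNAs stand when ZMYND8 is raised, and most of them moved. With edgeR's quasi-likelihood test and Benjamini-Hochberg adjustment over 20835 tested genes, 9 of the 10 passed an adjusted p of 0.05. CASC15, NBAT1, MIAT and TUG1 were higher in ZMYND8 OE than in Parental cells, and CYTOR, PVT1, MALAT1, NEAT1 and NORAD were lower. So 4 of 10 rose, where 31.7% of all tested genes did, and 5 of 10 fell, where 29.1% did. With a log2 fold change of at least 1 in either direction and a mean normalized count above 20 added, 3 of 10 were called higher against 11.8% of all tested genes, and 1 of 10 was called lower against 6.84%. The libraries of the 2 groups did not overlap for 10 of 10, but neither did they for 80.3% of all tested genes, so a lack of overlap says little by itself. The median log2 fold change was -0.36 over the 10 and 0.03 over all tested genes. All 10 had passed the filter on low counts. Scaling by total counts alone shifted the median of all tested genes by 0.25, and MALAT1, NEAT1, NORAD and PVT1 then stood at -0.44, -0.40, -0.28 and -0.48 and TUG1 at 0.44, with 9 of 10 again past the adjusted p. NBAT1, CASC15 and MIAT are also on the study's own list of upregulated lncRNAs, which was drawn from these libraries, so their direction is not independent evidence.

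The second comparison asked the same when ZMYND8 is lowered, and fewer of the lncRNAs moved, by less. CYTOR rose, and NEAT1 and TUG1 fell, out of 10 that had all passed the filter. Of 19789 tested genes, 13.4% rose and 10.8% fell at the same adjusted p. None of the 10 was called at all 3 thresholds, where 1.36% of tested genes were called higher and 0.596% lower. MALAT1, which did not pass, had an unadjusted p of 0.0233 in the edgeR test. With DESeq2, which called 282 genes in all, none of the 10 was called either. The libraries of the 2 groups did not overlap for 7 of the 10, as for 61.6% of all tested genes. The median log2 fold change was -0.11 over the 10 and -0.01 over all tested genes. ZMYND8 counts differed far less between the groups here than in the overexpression experiment, and the sizes of the effects are not matched. In a test of the difference of the 2 effects over all 8 libraries, 8 of the 10 lncRNAs passed an adjusted p of 0.05, where 49% of 22619 tested genes did.

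**Figure D2:**
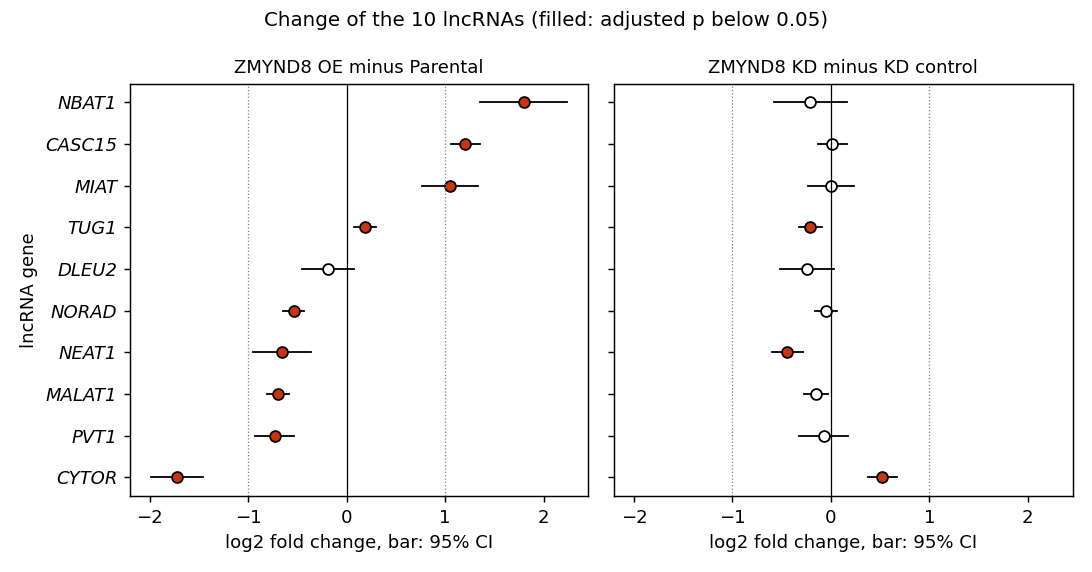
Log2 fold change of each lncRNA, ZMYND8 OE minus Parental on the left and ZMYND8 KD minus KD control on the right, with 95% confidence intervals from edgeR as bars. Filled points passed an adjusted p of 0.05, and dotted lines mark log2 fold changes of -1 and 1. The points spread from -1.73 for CYTOR to 1.80 for NBAT1 on the left, and from -0.44 for NEAT1 to 0.52 for CYTOR on the right.

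MALAT1 (ENSG00000251562) lies on chromosome 11 of GRCh38 from 65497688 to 65506516, on the plus strand, as 1 exon block of 8829 bases. Of all counts it took 0.437% and 0.447% in Parental and 0.317% and 0.333% in ZMYND8 OE libraries. On the normalized scale the Parental libraries were at 4628 and 4801 CPM and the ZMYND8 OE libraries at 2693 and 2764 CPM. The groups lay well apart, with hardly any spread within them. The fall was -0.70 on the log2 scale ± 0.049 (SE, adjusted p = 5.80e-07). In the knockdown experiment the KD control libraries were at 7454 and 7596 CPM and the ZMYND8 KD libraries at 6822 and 6732 CPM. These did not overlap either, and the log2 difference of -0.15 (95% confidence interval -0.27 to -0.02) had an adjusted p of 0.0799. It fell below 0.05 with DESeq2 (adjusted p = 0.0217), and it ranged from 0.0217 to 0.294 over the alternatives.

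NEAT1 (ENSG00000245532) lies upstream of MALAT1 on the same strand of chromosome 11, from 65422774 to 65445540, as 1 exon block of 22767 bases. It was at 363 and 474 normalized CPM in Parental and 215 and 283 CPM in ZMYND8 OE libraries. Both groups were wide, and the lowest Parental library lay above the highest ZMYND8 OE library. The log2 fold change was -0.66 ± 0.133 (SE, adjusted p = 0.00150), between -0.88 and -0.46 with any 1 library left out. NEAT1 was at 444 and 493 normalized CPM in KD control and 365 and 324 CPM in ZMYND8 KD libraries. Here too the groups lay apart, and the log2 fold change was -0.44 ± 0.072 (SE, adjusted p = 0.00139). NEAT1 was the only one of the 10 to pass the test as lower in both experiments.

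Few genes of the bodies that these RNAs belong to passed the test under ZMYND8 overexpression, where 31.7% of all tested genes rose and 29.1% fell. Of 15 genes for paraspeckle proteins, 1 rose (SMARCA4, a chromatin remodeler, log2 fold change 0.27, adjusted p = 0.000527) and none fell. The paraspeckle core genes SFPQ and NONO had log2 fold changes of 0.04 and -0.0018 there, with adjusted p of 0.571 and 0.978. Of 14 genes for nuclear speckle and SR splicing factors, 4 fell (SON, SRSF11, SRRM1 and SRRM2, by 0.17 to 0.20 on the log2 scale) and none rose. The median log2 fold changes were 0.01 and -0.03, against 0.03 over all tested genes. In ZMYND8 KD cells, where 13.4% of all tested genes rose and 10.8% fell, 4 of the 15 paraspeckle genes rose and 2 fell. Among the latter was TAF15, an RNA-binding protein, at -1.87 ± 0.315 (SE, adjusted p = 0.00168), the largest SE of that list. TAF15 averaged 853 normalized counts in KD control and 234 in ZMYND8 KD libraries. Scaled within the overexpression experiment, it averaged only 59.6 in Parental and 59.9 in ZMYND8 OE libraries. In the speckle list SRSF9 rose by 0.15 and SRSF5 fell by 0.16 on the log2 scale.

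NORAD (ENSG00000260032), on chromosome 20 from 36045618 to 36051018 on the minus strand, is 1 exon block of 5401 bases. The element that PUMILIO proteins read, TGTANATA, occurred 15 times on its sense strand, or 2.78 per kb of exon. The next densest among the 10 was TUG1 at 0.296 per kb, and MALAT1, CYTOR and MIAT had none. To show what the repeats look like, 5 of the 15 are given with 8 bases on either side, read from GRCh38 on the minus strand and counted from the first base of the exon block, with the element in capitals. The first starts at base 819, the next at 1198, 1299 and 1500, and the last at 4657. A match is a description of the letters and not a test of binding.
NORAD base 819 (chr20:36050193-36050200): aaggcctgTGTATATAatatgaaa
NORAD base 1198 (chr20:36049814-36049821): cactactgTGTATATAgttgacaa
NORAD base 1299 (chr20:36049713-36049720): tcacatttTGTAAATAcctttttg
NORAD base 1500 (chr20:36049512-36049519): cttatctgTGTATATAgtgtacat
NORAD base 4657 (chr20:36046355-36046362): agcctattTGTAAATAcctttgtt

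**Figure D3:**
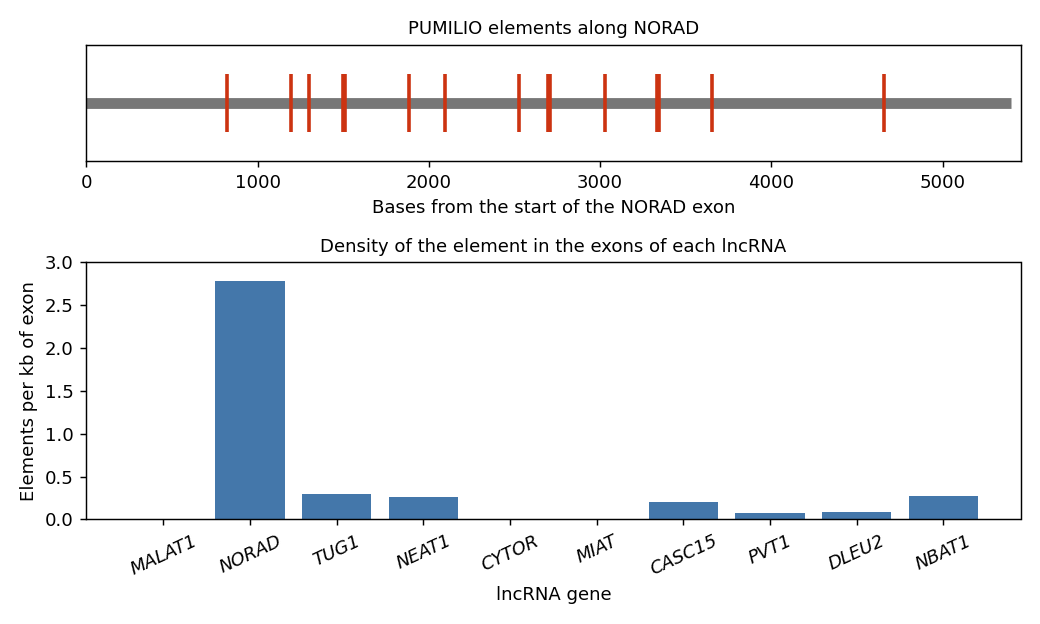
Top, places of the 15 PUMILIO elements along the NORAD exon in bases from its start, each as a vertical line. Bottom, elements per kb of exon in each of the 10 lncRNAs, with NORAD at 2.78 and every other gene at 0.296 or less.

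NORAD fell with ZMYND8 overexpression and hardly differed with knockdown. It was at 956 and 929 normalized CPM in Parental and 612 and 609 CPM in ZMYND8 OE libraries. The 2 ZMYND8 OE libraries were close to each other and well below both Parental ones. The log2 fold change was -0.54 ± 0.048 (SE, adjusted p = 3.63e-06). NORAD was at 876 and 890 normalized CPM in KD control and 839 and 866 CPM in ZMYND8 KD libraries, a log2 difference of -0.05 (95% confidence interval -0.16 to 0.07, adjusted p = 0.553). Of its exonic 31-base sequences, 63.1% occur again in GRCh38, with 37.7% found within the span of OVCH1-AS1 and 26.5% within that of LINC02211, which had at most 19 and 4 counts in any library. Reads of NORAD from those stretches may not have been counted. Among 4 genes for PUMILIO proteins and partners of NORAD, PUM2 rose by 0.14 in ZMYND8 OE cells (adjusted p = 0.0239), and in ZMYND8 KD cells PUM2 fell by 0.24 on the log2 scale (adjusted p = 0.00533).

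TUG1 (ENSG00000253352), a gene found through its response to taurine in the retina, lies on chromosome 22 from 30969245 to 30979395 on the plus strand, and GENCODE release 44 lists it as protein coding. It was at 300 and 295 normalized CPM in Parental and 311 and 324 CPM in ZMYND8 OE libraries. The libraries did not overlap, and the log2 fold change was 0.19 ± 0.049 (SE, adjusted p = 0.00776). Without Parental replicate 2 it was 0.16 with an adjusted p of 0.0672. TUG1 was at 469 and 493 normalized CPM in KD control and 413 and 419 CPM in ZMYND8 KD libraries. This was a fall of -0.21 ± 0.052 (SE, adjusted p = 0.0149), which was -0.17 with an adjusted p of 0.114 without KD control replicate 2. Other annotated genes cover 14.4% of its exon bases.

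CYTOR (ENSG00000222041), a lncRNA known for its link to growth and migration of tumor cells, fell more than any other of the 10 with ZMYND8 overexpression and rose with knockdown. It lies on chromosome 2 from 87454781 to 87636740 on the plus strand, with 25 exon blocks. It was at 21.6 and 21.2 normalized CPM in Parental and 6.91 and 5.198 CPM in ZMYND8 OE libraries. Every ZMYND8 OE library had less than every other library of the study. The log2 fold change was -1.73 ± 0.119 (SE, adjusted p = 4.69e-07), and it lay between -1.94 and -1.55 with any 1 library left out. CYTOR was at 20.95 and 20.03 normalized CPM in KD control and 29.7 and 29.1 CPM in ZMYND8 KD libraries. The ZMYND8 KD libraries were the highest of all 8, with a log2 fold change of 0.52 ± 0.068 (SE, adjusted p = 0.000330).

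The assignment of reads to CYTOR is uncertain. Of its exonic 31-base sequences, 80.6% occur within the span of MIR4435-2HG, a near-copy elsewhere on chromosome 2, and 49.8% of those of MIR4435-2HG occur within the span of CYTOR. MIR4435-2HG was at 45.4 and 46.4 normalized CPM in Parental, 16.4 and 12.8 in ZMYND8 OE, 31.2 and 31.4 in KD control, and 45.0 and 37.7 in ZMYND8 KD libraries. Its groups were apart in the same directions as those of CYTOR, with log2 fold changes of -1.56 (adjusted p = 1.68e-07) and 0.40 (adjusted p = 0.00525). The levels of the pair summed to 67.0 and 67.7 normalized CPM in Parental and 23.3 and 17.96 in ZMYND8 OE libraries, and to 52.1 and 51.4 in KD control and 74.7 and 66.8 in ZMYND8 KD libraries. CYTOR held 31.4% to 32.3% of the summed counts in Parental, 29.0% to 29.7% in ZMYND8 OE, 38.9% to 40.2% in KD control and 39.8% to 43.6% in ZMYND8 KD libraries.

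**Figure D4:**
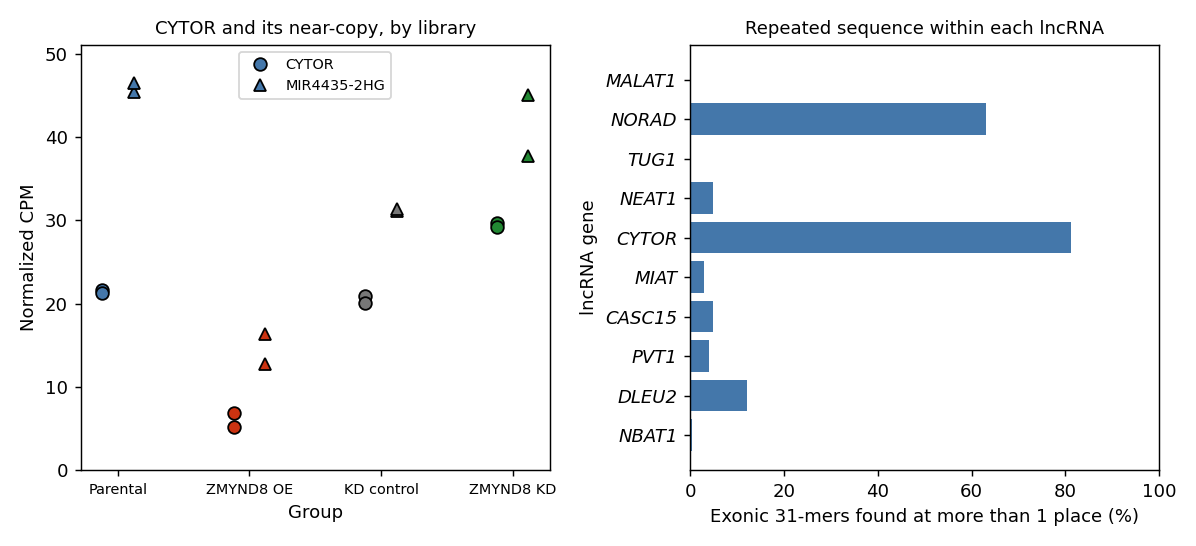
Left, normalized CPM of CYTOR (circles) and of its near-copy MIR4435-2HG (triangles), 1 point per library in each group, with both genes lowest in ZMYND8 OE. Right, percent of the exonic 31-base sequences of each lncRNA that occur at more than 1 place of the genome, highest for CYTOR (81.3%) and NORAD (63.1%).

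The promoter of CYTOR is shown because it was the only called gene of the 10 that fell. It is the stretch around the RefSeq start (GRCh38.p14, plus strand, chr2:87455177-87455476). Each promoter was searched on both strands for the AP-1 site TGANTCA, the retinoic acid receptor half-site AGGTCA and the E-box CACGTG. CYTOR held 2 AP-1 matches, given in capitals, which lie 3 bases apart and overlap no other motif. Of 35116 promoters of this length, 7.71% held at least 1 AP-1 match. Promoters of 8 of the 10 genes were searched, MALAT1 and DLEU2 with 2 promoters each, and none of the other 7 genes held an AP-1 match. NEAT1 and PVT1, which also fell with overexpression, were not searched. Whether CYTOR is the only one of the 10 with an AP-1 match is thus unknown. None of the 8 held AGGTCA, which 13.8% of all promoters hold, and NORAD, TUG1 and DLEU2 held CACGTG, as 7.26% of all promoters do.
CYTOR promoter: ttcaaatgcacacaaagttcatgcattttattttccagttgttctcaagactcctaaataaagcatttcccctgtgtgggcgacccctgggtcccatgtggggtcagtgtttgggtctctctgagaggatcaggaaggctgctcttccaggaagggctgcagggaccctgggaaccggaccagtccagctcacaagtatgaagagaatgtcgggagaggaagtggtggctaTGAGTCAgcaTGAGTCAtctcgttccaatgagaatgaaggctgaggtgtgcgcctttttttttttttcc

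CASC15 and NBAT1 are neighbors on chromosome 6 that are read from opposite strands, and both rose with ZMYND8 overexpression. CASC15 (ENSG00000272168) runs from 21664185 to 22654455 on the plus strand and NBAT1 (ENSG00000260455) from 22133205 to 22147193 on the minus strand. NBAT1 lies within the span of CASC15, and 227 bases of exon, 6.15% of the exon bases of NBAT1, belong to both. The strand setting of the counting is not given in the sources used here, so reads from those bases cannot be told apart. The 2 promoters, in lower case since none of the 3 motifs occurred in them, are from RefSeq on GRCh38.p14, CASC15 at chr6:21666163-21666462 on the plus strand and NBAT1 at chr6:22147144-22147443 on the minus strand. They differ in base composition, with 66.7% G and C in the promoter of CASC15 and 48.7% in that of NBAT1.
CASC15 promoter: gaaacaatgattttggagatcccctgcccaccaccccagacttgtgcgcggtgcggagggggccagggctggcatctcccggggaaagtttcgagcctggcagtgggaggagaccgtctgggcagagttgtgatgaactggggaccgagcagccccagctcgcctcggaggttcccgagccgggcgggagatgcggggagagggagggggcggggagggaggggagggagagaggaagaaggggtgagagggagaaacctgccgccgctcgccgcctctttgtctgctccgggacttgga
NBAT1 promoter: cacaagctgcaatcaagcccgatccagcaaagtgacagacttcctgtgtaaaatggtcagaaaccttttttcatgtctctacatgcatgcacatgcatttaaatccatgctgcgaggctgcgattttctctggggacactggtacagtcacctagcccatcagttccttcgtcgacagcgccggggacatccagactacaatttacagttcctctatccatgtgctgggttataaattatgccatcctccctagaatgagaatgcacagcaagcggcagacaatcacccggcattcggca

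CASC15 was at 23.8 and 24.5 normalized CPM in Parental and 49.6 and 55.0 CPM in ZMYND8 OE libraries. The ZMYND8 OE libraries lay far above the Parental ones. The log2 fold change was 1.21 ± 0.067 (SE, adjusted p = 8.45e-08), and it lay between 1.13 and 1.29 with any 1 library left out. CASC15 was at 58.3 and 65.8 normalized CPM in KD control and 60.9 and 64.4 CPM in ZMYND8 KD libraries, and these overlapped. The log2 difference was 0.02 (95% confidence interval -0.13 to 0.16, adjusted p = 0.896).

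NBAT1, the scarcest of the 10 in Parental cells, had 43 and 50 counts there and 166 in each ZMYND8 OE library. On the normalized scale these were 1.02 and 0.989 CPM against 2.98 and 3.60 CPM, groups that lay far apart. The log2 fold change was 1.80 ± 0.200 (SE, adjusted p = 2.07e-05), or 3.47-fold, the highest of the 10. NBAT1 was at 2.36 and 2.57 normalized CPM in KD control and 2.13 and 2.14 CPM in ZMYND8 KD libraries. The log2 difference was -0.21, with a 95% confidence interval from -0.58 to 0.16 (adjusted p = 0.415), on 110 to 140 counts per library in that experiment. SOX4, a transcription factor gene within 100 kb of CASC15, rose by 0.38 on the log2 scale in ZMYND8 OE cells (adjusted p = 5.99e-05) and had a value of 0.09 in ZMYND8 KD cells (adjusted p = 0.293).

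MIAT (ENSG00000225783) lies on chromosome 22 from 26646411 to 26676475 on the plus strand, with 11 exon blocks. It was at 13.2 and 15.7 normalized CPM in Parental and 24.4 and 32.1 CPM in ZMYND8 OE libraries. The ZMYND8 OE libraries were higher, and they were also spread more widely than the Parental ones. The log2 fold change was 1.05 ± 0.129 (SE, adjusted p = 4.33e-05), just past the fold threshold. It was 0.84 without ZMYND8 OE replicate 2, 0.93 without Parental replicate 1 and 0.90 with the trends over exon length and GC content taken out, and in these 3 settings MIAT was no longer called, though its adjusted p remained 0.000149 or less. MIAT was at 12.9 and 15.7 normalized CPM in KD control and 14.4 and 14.2 CPM in ZMYND8 KD libraries. The groups overlapped and the log2 difference was 0.0031 (95% confidence interval -0.23 to 0.23, adjusted p = 0.989). An unnamed antisense lncRNA gene, ENSG00000206028, covers 15.4% of the exon bases of MIAT, and it had a log2 fold change of 0.98 in ZMYND8 OE cells (adjusted p = 0.0293). Which strand those reads came from is unknown, while MIATNB, which follows MIAT on its strand, had a value of 0.08 (adjusted p = 0.574).

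**Figure D5:**
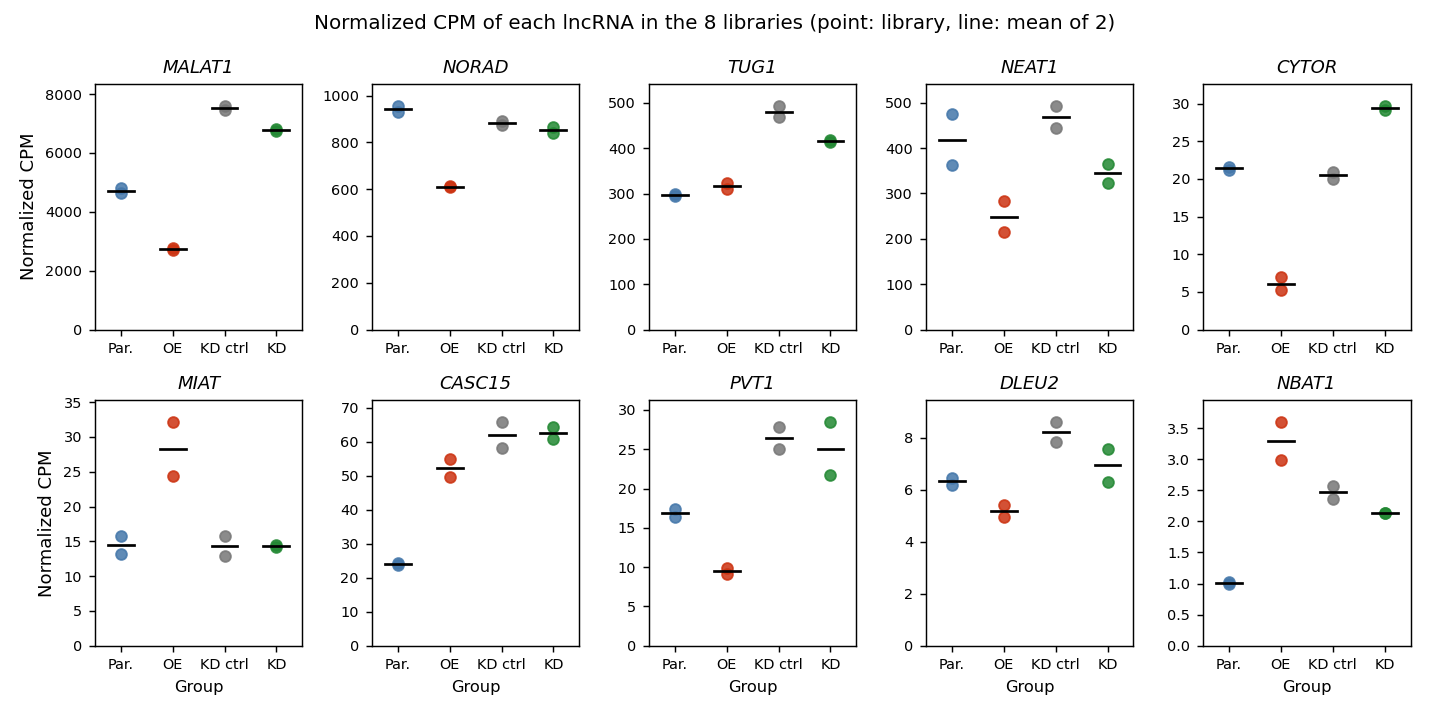
Normalized CPM of each lncRNA in the 8 libraries, 1 panel per gene with its own axis from 0, points for libraries and lines for the mean of 2. Parental and ZMYND8 OE libraries do not overlap in any panel, while KD control and ZMYND8 KD libraries overlap for MIAT, CASC15 and PVT1.

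DLEU2 was the gene of the 10 that passed the test in neither experiment. DLEU2 (ENSG00000231607), on chromosome 13 from 49956670 to 50125720 on the minus strand, is the host of the microRNA genes MIR15A and MIR16-1. It was at 6.43 and 6.19 normalized CPM in Parental and 5.42 and 4.96 CPM in ZMYND8 OE libraries. The libraries did not overlap, but the log2 difference was only -0.19 (95% confidence interval -0.46 to 0.08, adjusted p = 0.200). It was at 7.82 and 8.59 normalized CPM in KD control and 7.57 and 6.31 CPM in ZMYND8 KD libraries, a log2 difference of -0.24 (95% confidence interval -0.52 to 0.04, adjusted p = 0.195). DLEU2 had 229 to 469 counts per library, and a log2 difference of 1 in either direction lies well outside both intervals. TRIM13, which overlaps it on the opposite strand over 5.93% of its exon bases, fell by 0.28 in ZMYND8 OE cells (adjusted p = 0.00116) and had a value of -0.16 in ZMYND8 KD cells (adjusted p = 0.0754).

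PVT1 (ENSG00000249859), next to the MYC oncogene on chromosome 8 from 127794526 to 128187101 on the plus strand, fell with ZMYND8 overexpression. It was at 17.4 and 16.4 normalized CPM in Parental and 9.91 and 9.16 CPM in ZMYND8 OE libraries. The groups lay well apart, with a log2 fold change of -0.73 ± 0.089 (SE, adjusted p = 4.17e-05). In the knockdown experiment PVT1 was at 25.03 and 27.87 normalized CPM in KD control and 28.4 and 21.7 CPM in ZMYND8 KD libraries. The 2 ZMYND8 KD libraries lay on either side of the KD control libraries, and the log2 difference was -0.07 (95% confidence interval -0.33 to 0.18, adjusted p = 0.687). It was -0.29 with an adjusted p of 0.0181 without ZMYND8 KD replicate 1, and 0.11 with an adjusted p of 0.466 without replicate 2. MYC had a log2 difference of -0.20 in ZMYND8 OE cells (adjusted p = 0.298) and rose by 0.75 in ZMYND8 KD cells (adjusted p = 0.000234).

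The KD control and Parental cells, neither of which was given extra ZMYND8, did not have the same levels of these lncRNAs. On the normalized scale CASC15 was 2.57-fold, NBAT1 2.45-fold, TUG1 1.62-fold, MALAT1 1.60-fold and PVT1 1.57-fold as high in KD control as in Parental cells. The ratio was 1.30 for DLEU2, 1.12 for NEAT1, 0.989 for MIAT, 0.956 for CYTOR and 0.937 for NORAD. CASC15, at a mean of 62.0 normalized CPM in KD control cells, was thus above its mean of 52.3 in ZMYND8 OE cells. In contrast, MIAT, CYTOR and NORAD had like levels in both control groups and moved away from them in ZMYND8 OE cells. The like level of CYTOR did not extend to the sum with its near-copy MIR4435-2HG. That sum was 67.0 and 67.7 normalized CPM in Parental and 52.1 and 51.4 in KD control libraries. No test was made here, because the experiment, Dox and the control vector differ together between these groups and cannot be told apart. The share of mitochondrial counts given above differed between the experiments as well, and its part in these ratios was not tested.

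Among 22 other well known lncRNAs, of which 19 had enough counts to be tested in the overexpression comparison, 7 rose and 5 fell, where 31.7% and 29.1% of all tested genes did, with a median log2 fold change of 0.15 against 0.03 over all tested genes. H19, an imprinted RNA, rose by 4.05 on the log2 scale (adjusted p = 6.71e-09) and DANCR, known from progenitor cells, by 1.19 (adjusted p = 2.23e-07). LINC-PINT was lower at -1.63 (adjusted p = 1.01e-05). In ZMYND8 KD cells 6 of 17 rose and 1 fell, where 13.4% and 10.8% of all tested genes did, with a median of 0.14 against -0.01 over all tested genes, among them LINC00511 at 0.49 (adjusted p = 0.00170) and DLEU1, which starts beside DLEU2, at 0.72 (adjusted p = 0.00340). H19 rose here too, by 1.09 (adjusted p = 0.0219), and was the 1 gene of this list called at all 3 thresholds with knockdown. Of the 8 genes for subunits of PRC2, the complex that writes H3K27 methylation and to which several lncRNAs have been reported to bind, 3 rose and 3 fell in ZMYND8 OE cells. JARID2, a cofactor of the complex, rose by 1.34 (adjusted p = 9.20e-09), and in ZMYND8 KD cells it was the 1 gene of the 8 to pass, at 0.42 (adjusted p = 0.000207).

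Genes near the lncRNAs moved in both directions. Of 115 other genes within 100 kb of the 10, 37 had enough counts in the overexpression comparison, and 7 of these rose and 15 fell, where 31.7% and 29.1% of all tested genes did, with a median log2 fold change of -0.15 against 0.03. EHBP1L1 and LTBP3, which lie near MALAT1, were lower at -0.78 and -0.54 (adjusted p = 1.60e-07 and 6.39e-06). TIGD3, near NEAT1, rose by 2.21 (adjusted p = 7.16e-06), and SPRYD7, near DLEU2, was at -0.81 (adjusted p = 2.85e-05). In the knockdown comparison 4 of 36 rose and 3 fell, where 13.4% and 10.8% of all tested genes did, with a median of 0.03 against -0.01. They included MYC, DLEU1 and EPB41L1 (0.28, adjusted p = 0.00353), which rose, and PHF20 (-0.30, adjusted p = 0.00253), which fell, the last pair being neighbors of NORAD.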

How the data were processed

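Total RNA from SK-N-SH cells was sequenced as 8 libraries, grouped by sample titles into 4 groups of 2 that the labels call biological replicates. The authors deposited raw read counts, as whole numbers for each gene. Upstream, the methods describe Trim_Galore for trimming, removal of reads with a Phred score under 25, alignment by Hisat2 on GRCh38 and counting by FeatureCounts, and the submitters' processing notes name HISAT2, DESeq2 and hg38. The strand setting and the handling of reads with several matches are not given in the sources used here, and both bear on overlapping genes, CYTOR and NORAD. Of 60662 lines, 3 of 1 split gene were left out. GENCODE release 44 gave symbols for 60418 of 60659 genes, and coordinates are those of the table.

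The 4 libraries of each experiment were fitted alone, with filterByExpr, TMM and edgeR's two-sided quasi-likelihood test (R 4.3.3 with edgeR 4.0.16 and limma 3.58.1), adjusted by Benjamini-Hochberg over all tested genes. Called genes had an adjusted p under 0.05, differed by 1 or more on the log2 scale and averaged more than 20 normalized counts. The difference of the effects was an interaction over all 8 libraries, and CPM levels rest on TMM library sizes over all 8. Alternatives were RLE and upper quartile normalization, total counts alone, no filter, DESeq2 1.42.0, the replicate number as a block, a joint fit of the 8 libraries, loess trends over exon length and GC content taken out (span 0.5), and each library left out in turn, the lone library then assumed to vary like the others.

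The biological coefficient of variation was 0.0565 with overexpression and 0.0613 with knockdown, and no replicates agreed within counting noise (chi-square per degree of freedom 5.52 to 7.97). Tested on simulated data of 20482 (overexpression) and 19711 (knockdown) genes, edgeR called 200 of 200 changed genes, with 2 unchanged ones in each. For the difference it called 200 of 200 with 9 unchanged ones of 21557. The simulation does not show how well changes below the fold threshold, which most of the lncRNAs had, are detected. It does not show this for counts as low as those of NBAT1 either. Nor does it give the rate of unchanged genes past the adjusted p alone.

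The 10 lncRNAs, the gene lists and the tests were chosen with earlier results of these data known. All 10 lncRNAs are named. From each list, and from the genes within 100 kb, at most 4 genes a comparison are named, those with the smallest adjusted p. SFPQ, NONO, SOX4, TRIM13, MIATNB, ENSG00000206028, MYC with overexpression, H19 with knockdown and single markers were added after their values were seen. Repeated 31-base sequences were counted over the exons of the table on GRCh38 without alternate contigs, and promoters are those of RefSeq.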

Additional observations from a re-analysis of the deposited data

Results flagged for a closer look

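The effect of ZMYND8 overexpression differed from that of ZMYND8 knockdown for 8 of the 10 lncRNAs in a test of the difference itself, an interaction over all 8 libraries in edgeR, where 49% of 22619 tested genes differed. The difference, overexpression minus knockdown on the log2 scale, was -2.25 for CYTOR (adjusted p = 3.57e-09), which passed the test in both experiments with opposite signs. It was 0.39 for TUG1 (adjusted p = 0.000418), which also passed in both with opposite signs. NBAT1 stood at 2.00 (adjusted p = 1.25e-05), CASC15 at 1.18 (adjusted p = 1.26e-07) and MIAT at 1.04 (adjusted p = 0.000233), all 3 past the test in the overexpression experiment alone. MALAT1 was at -0.56 (adjusted p = 1.68e-05), PVT1 at -0.66 (adjusted p = 0.00261) and NORAD at -0.49 (adjusted p = 3.57e-05), again with a test passed in the overexpression experiment alone. NEAT1 at -0.22 (adjusted p = 0.314) and DLEU2 at 0.04 (adjusted p = 0.868) had no difference past the threshold. The experiments differ in Dox, vector, change of ZMYND8 and mitochondrial share as well, which cannot be told apart from the direction of the ZMYND8 change.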

How the results depend on the processing

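The counts of lncRNAs past the test or called kept within 1.5 times of their values in every alternative, as did the counts of all called genes, 3601 to 4152 in the overexpression and 282 to 462 in the knockdown comparison. Past the adjusted p were 8 to 9 of 10 with overexpression and 2 to 4 with knockdown. The replicate numbers did not pair the libraries (correlation of deviations 0.0079 and -0.012), and with the number as a replicate block 9 and 3 of 10 passed, as without it. The block brought the difference of effects of NEAT1 to an adjusted p of 0.0302, as did no filter on low counts (0.000771) and leaving out ZMYND8 OE replicate 2 (0.0262). Signs turned only for values that had not passed the test, and the cause was not tested. Scaling by total counts alone gave DLEU2 0.065 with overexpression, and with knockdown MIAT -0.055 and CASC15 -0.042. Upper quartile normalization gave MIAT -0.014 and CASC15 -0.00086 with knockdown, and taking out the trends gave -0.053 and -0.081. The difference of effects of DLEU2 was -0.016 with RLE, -0.037 without a filter and -0.018 with DESeq2. Leaving out each library in turn, the knockdown values ran from -0.14 to 0.15 for MIAT, -0.074 to 0.10 for CASC15 and -0.29 to 0.11 for PVT1, and the difference for DLEU2 from -0.083 to 0.17. MALAT1 passed the test with knockdown under DESeq2, total counts (adjusted p = 0.0240) and the trends (adjusted p = 0.0422). With 2 libraries a group, NBAT1, the gene with the fewest counts, had the widest confidence interval of the 10 in both comparisons.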
